A study of Mus musculus with 17 samples.

Results

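Expression of 8 scavenger receptor genes was followed in immune cells sorted from injured mouse muscle. The genes, Msr1, Marco, Colec12, Scarb1, Scarb2, Cd68, Olr1 and Stab1, were taken by symbol from a table of 38087 genes, each on 1 row. The source was tibialis anterior of DBA/2J males at an age of 3 months, an inbred strain for which the labels give no engineered allele, after an injection of cardiotoxin, a venom peptide used to destroy fibres and start regeneration. The 17 samples formed 6 groups. Neutrophils were taken on day 1 (2 samples), macrophages with high surface Ly6C on days 1, 2 and 4, and macrophages with low surface Ly6C on days 2 and 4 (3 samples in each macrophage group). All groups carried the same injury, and uninjured muscle was not analysed here. The labels do not say whether the samples of a group came from separate animals. The table held 1 log2 value per group and none per sample, so no value below has an error, no test could be run, and no difference could be set against sample-to-sample spread. Differences of at least 1 on the log2 scale, which is 2-fold, were counted where the higher of both groups reached a log2 value of 5.

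Scavenger receptors are surface or endosomal proteins that bind modified lipoproteins, bacterial surfaces, matrix fragments and the remains of dead cells and carry them to the lysosome. They are grouped in classes by domain structure and share a broad taste for charged ligands more than a common ancestry. Macrophages entering injured muscle clear necrotic fibres, and those of the first days come from Ly6C high monocytes that give way to Ly6C low cells. Msr1 (class A) is a collagen-like receptor for acetylated lipoprotein, Marco a relative that binds bacteria and particles, and Colec12 a class A receptor with a lectin domain. Scarb1 (class B) moves cholesterol ester in from high-density lipoprotein. Scarb2, its class B relative, lies in the lysosomal membrane. Cd68 (class D) is a heavily glycosylated late endosomal protein used as a macrophage marker. Olr1 (class E) encodes LOX-1, a C-type lectin-like receptor for oxidised lipoprotein. Stab1 (class H) encodes stabilin-1, which takes up the matrix protein SPARC and other ligands.

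The sequence around the start site is shown for Stab1 and Cd68, whose values followed each other most closely over the groups, and for Olr1, which ran against them. Each is 300 bases, from 250 before to 50 after the RefSeq start, on the minus strand of GRCm38.p6, at chr14:31168592-31168891 for Stab1, chr11:69666121-69666420 for Cd68 and chr6:129507116-129507415 for Olr1. Capitals mark GAGGAA, the core bound by the myeloid factor PU.1, and TGANTCA, the site of AP-1 factors, on either strand.
Stab1: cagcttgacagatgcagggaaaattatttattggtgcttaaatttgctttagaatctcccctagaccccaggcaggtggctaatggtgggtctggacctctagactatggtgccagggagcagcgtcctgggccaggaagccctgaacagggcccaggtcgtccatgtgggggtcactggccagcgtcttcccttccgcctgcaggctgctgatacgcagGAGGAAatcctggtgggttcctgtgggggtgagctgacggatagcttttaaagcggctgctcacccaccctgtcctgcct
Cd68: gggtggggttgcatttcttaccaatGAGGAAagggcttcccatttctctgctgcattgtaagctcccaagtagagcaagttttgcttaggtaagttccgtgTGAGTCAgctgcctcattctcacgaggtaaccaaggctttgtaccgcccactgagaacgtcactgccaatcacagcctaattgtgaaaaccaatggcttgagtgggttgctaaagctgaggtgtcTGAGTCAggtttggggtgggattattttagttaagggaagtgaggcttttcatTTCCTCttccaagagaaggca
Olr1: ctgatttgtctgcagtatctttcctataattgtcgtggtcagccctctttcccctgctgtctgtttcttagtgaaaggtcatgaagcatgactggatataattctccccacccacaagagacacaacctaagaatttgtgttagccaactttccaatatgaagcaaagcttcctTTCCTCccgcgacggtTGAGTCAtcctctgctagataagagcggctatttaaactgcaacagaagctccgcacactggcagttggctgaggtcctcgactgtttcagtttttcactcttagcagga
GAGGAA stood once in Stab1, at -30 from the start, once in Olr1, at -76, and 2 times in Cd68, at -225 and 30. It was present in 28.3% of 27025 promoter windows of this length. TGANTCA stood 2 times in Cd68, at -149 and -24, once in Olr1, at -60, and nowhere in the Stab1 window, and was present in 7.93% of windows. The table held windows for 5 of the 8 genes, the others being Marco (GAGGAA once, no TGANTCA) and Scarb2 (neither). The element named DR1, which is 2 copies of AGGTCA with 1 base between, the form bound by PPAR and RXR pairs and present in 0.0444% of windows, was in none of the 5, nor was CACGTG, the E-box within the lysosomal gene element named CLEAR, which 7.24% of windows held. These are matches of letters and no evidence of binding.

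Between them the 8 genes separated along time, along subset, or hardly at all. Msr1 and Scarb1 differed with the day and hardly between Ly6C high and Ly6C low cells. Stab1 differed between the subsets on both days and little with time. Olr1 was highest in neutrophils and lower in each later macrophage group, Scarb2 shifted modestly along both axes, and Cd68 and Colec12 stayed within 2-fold over all 6 groups. Marco was near the floor of the assay.

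**Figure D1:**
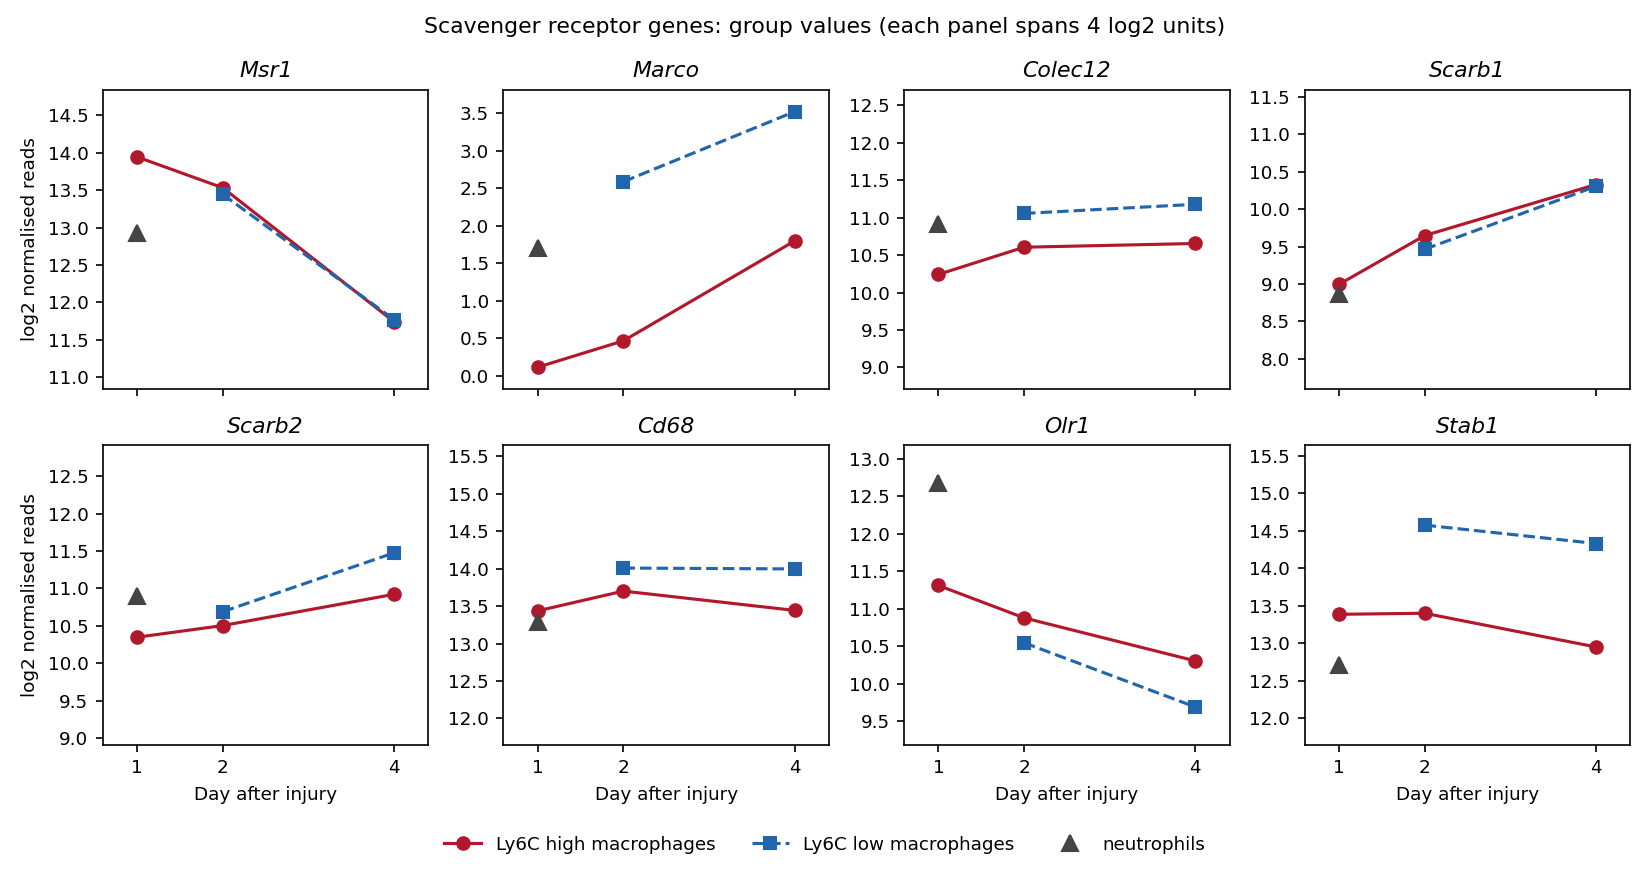
Log2 normalised reads (vertical axis, authors' value per group) of the 8 genes by day after injury (horizontal axis), with circles for Ly6C high macrophages, squares for Ly6C low macrophages and a triangle for neutrophils; error bars are absent since each group has 1 value. The Msr1 and Scarb1 lines of both subsets lie close together, while the Stab1 squares stand at 14.58 and 14.33 above circles at 13.40 and 12.95.

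The columns were checked against the cells they are labelled with. One read was worth 0.412 to 1.03 normalised units per library, estimated from repeated low values. The group values of the 7 genes other than Marco therefore corresponded to at least 454 reads per library as a group average. That is a counting error of at most 4.69% if every read was independent. Reads of these genes in single libraries are not known. In 11 of the 17 libraries, among them both of neutrophils and all of Ly6C high cells on days 1 and 2, 61.2 to 85.0% of low-valued genes lay on even numbers of reads, against at most 38.7% in the others, which leaves fewer independent reads in those 11 if reads were counted in pairs. The macrophage genes Csf1r and Emr1 were at 13.27 and 12.22 in the neutrophil column, near their 13.52 and 12.34 in Ly6C high cells of day 1, and Ly6g, the neutrophil surface marker, had 3.48 there against a listed 0 in all 5 macrophage columns. The 10 macrophage markers summed to 154800 normalised reads in that column and to 217300 to 328600 in the macrophage columns. Lyz2 and Cd14, at 16.61 and 14.95 in the neutrophil column, make up most of its sum, which says little about the other markers. Of the 10, 3 were 2-fold higher and 3 lower in Ly6C high cells of day 1 than in neutrophils, beside 16.6% and 16.1% of all genes. Receptor levels in the neutrophil column cannot be assigned to neutrophils alone. On day 4 the Ly6C high column held markers of other cells, with 12 of 12 fibroblast markers, 12 of 12 endothelial, 7 of 10 dendritic cell, 2 of 2 myogenic and the 1 lymphocyte marker compared higher than on day 2. The share of all genes higher was 14.3%. The Ly6C low column of day 4 did so too, with 12 of 12 fibroblast, 3 of 3 myogenic, 1 of 7 dendritic cell and the 1 lymphocyte marker higher than on day 2, and 0 of 5 endothelial markers, beside 9.23% of all genes. The myogenic markers summed to 416 normalised reads in the Ly6C low column of day 4 and to 198 in the Ly6C high column of that day. In both columns the myogenic and lymphocyte markers compared reached the minimum only on day 4, such as Des at 3.80 and 7.06 in Ly6C high cells. So did some fibroblast and dendritic cell markers and, in the Ly6C high column, some endothelial ones. In the Ly6C low column this held for every fibroblast marker except Col1a1, Col1a2 and Col3a1. For all genes that reached the minimum only on day 4 the filter fixed the direction. In bulk samples fewer cells of a type and less RNA per cell cannot be told apart.

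Among the class A receptors, Msr1 (ENSMUSG00000025044, chromosome 8, 39581685 to 39642673, GRCm38, minus strand like the other genes placed here) had the widest range of the well-measured genes after Olr1. On the log2 scale it stood at 12.92 for neutrophils, 13.94 (day 1), 13.53 (day 2) and 11.74 (day 4) for Ly6C high macrophages, and 13.44 (day 2) and 11.77 (day 4) for Ly6C low macrophages. The groups of days 1 and 2 were the 4 highest and both day 4 groups the lowest, with a gap of 1.15 between them. From day 1 to day 4 the Ly6C high value was lower by 2.20, or 4.60-fold. Between days 2 and 4 it was lower by 1.79 in Ly6C high cells and by 1.67 in Ly6C low cells. The subsets themselves differed by -0.09 on day 2 and 0.03 on day 4 (Ly6C low minus high), the first of which was 0.12 after quantile normalization. Between days 2 and 4 Cd68 differed by -0.26 in Ly6C high cells and by -0.01 in Ly6C low cells, so that Msr1 relative to Cd68 was lower by 1.53 and 1.66. Fibroblast markers went the other way in both steps, 12 of 12 higher each time, beside 14.3% and 9.23% of all genes. Some reached the minimum only on day 4, in the Ly6C low column all but Col1a1, Col1a2 and Col3a1. The summed level of the fibroblast markers went from 1491 to 63100 normalised reads in the Ly6C high column and from 268 to 16090 in the Ly6C low column. Classical monocyte markers were lower with Msr1, 3 of 8 in Ly6C high cells and 6 of 8 in Ly6C low cells. Of the platelet and erythroid markers compared, 2 of 3 and 2 of 2 were lower, Pf4 and Ppbp both times. Among all genes 2.0% and 2.16% were lower. The platelet markers Itga2b and Gp1ba, under the minimum, were higher on day 4. Their differences were 1.49 and 1.65 in Ly6C high cells and 0.12 and 1.00 in Ly6C low cells. The part of these cell types in the Msr1 difference was not tested.

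Marco (ENSMUSG00000026390, chromosome 1, 120474538 to 120505024) was close to the floor in every group. On the log2 scale it stood at 1.70 for day 1 neutrophils, 0.11 for Ly6C high macrophages of day 1, 0.46 and 2.59 for the high and low subsets of day 2, and 1.80 and 3.53 for the high and low subsets of day 4. The highest of these is 11.5 normalised reads. Both Ly6C low columns were above the Ly6C high columns of their day, by 2.12 and 1.73, but the gene missed the minimum of 5 in all groups and was counted in no comparison. Counting error alone is 19.1 to 19.5% at the highest value and 26.2 to 30.8% in Ly6C low cells of day 2, and larger in the other columns.

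Colec12 (ENSMUSG00000036103) showed a small offset in favour of Ly6C low cells. It stood at 10.92 for neutrophils, 10.24 (day 1), 10.61 (day 2) and 10.66 (day 4) for Ly6C high macrophages, and 11.06 (day 2) and 11.18 (day 4) for Ly6C low macrophages. The Ly6C low columns were the highest of the 6, by 0.45 on day 2 and 0.52 on day 4 over Ly6C high cells. All 6 values lay within 0.94, or 1.91-fold. Relative to Cd68 the subset differences were 0.14 and -0.03. Colec12 is known from vascular and stromal cells too. Endothelial markers were 2-fold lower in the Ly6C low columns, 7 of 10 on day 2 and 11 of 12 on day 4, beside 4.03% and 8.93% of all genes. Most of these markers reached the minimum only in Ly6C high cells, so the filter fixed their direction. The part of vascular and stromal cells in the Colec12 values was not tested.

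The class B genes stood higher on day 4 than on day 2 in both subsets, Scarb1 without a subset difference and Scarb2 with a small one. Scarb1 (ENSMUSG00000037936, chromosome 5, 125277087 to 125341094) stood at 8.86 for day 1 neutrophils, 8.995 for Ly6C high macrophages of day 1, 9.65 and 9.46 for the high and low subsets of day 2, and 10.33 and 10.30 for the high and low subsets of day 4. Both day 4 columns were the highest and lay 0.02 apart. The Ly6C high value of day 4 was 1.33, or 2.52-fold, above that of day 1, in 2 near-equal steps of 0.65 and 0.68. In Ly6C low cells day 4 was above day 2 by 0.84. Relative to Cd68, which was higher in Ly6C low cells, Scarb1 was lower there by 0.49 on day 2 and 0.58 on day 4. Scarb1 is also an endothelial gene. Between days 2 and 4 the summed endothelial markers went from 1169 to 6844 normalised reads in the Ly6C high column. In the Ly6C low column they went from 589 to 904, with Vwf, at 8.57 on day 4, the highest of them. The part of endothelial cells in the Scarb1 values was not tested.

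Scarb2 (ENSMUSG00000029426, chromosome 5, 92441314 to 92506833) stood at 10.90 for neutrophils, 10.35 (day 1), 10.51 (day 2) and 10.92 (day 4) for Ly6C high macrophages, and 10.69 (day 2) and 11.48 (day 4) for Ly6C low macrophages. Ly6C low cells of day 4 were highest, 0.55 above the next group, and the other 5 columns lay within 0.57. The acid lipase gene Lipa, which frees cholesterol from lipoprotein taken into lysosomes, stood at 12.57 for neutrophils, 10.75 (day 1), 11.36 (day 2) and 12.27 (day 4) for Ly6C high macrophages, and 12.42 (day 2) and 13.26 (day 4) for Ly6C low macrophages. Among the macrophages both Lipa and Scarb2 were highest in Ly6C low cells of day 4 and lowest in Ly6C high cells of day 1.

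Cd68 (ENSMUSG00000018774, chromosome 11, 69664213 to 69666153) varied least. It stood at 13.29 for day 1 neutrophils, 13.44 for Ly6C high macrophages of day 1, 13.70 and 14.01 for the high and low subsets of day 2, and 13.44 and 14.00 for the high and low subsets of day 4. The whole range was 0.72, or 1.65-fold. Ly6C low columns were above Ly6C high columns of their day by 0.31 and 0.55. All 14 genes of the lysosome list were above the Ly6C high value in Ly6C low cells on day 4, with a median difference of 0.59 against -0.03 over all genes. Of the 14, 2 were 2-fold higher, Ctsd and Ctsl, beside 2.44% of all genes. On day 2, 13 of the 14 were above 0, with a median of 0.54 against -0.03 over all genes. On that day 2 were 2-fold higher, Lipa among them, beside 3.71% of all genes.

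Olr1 (ENSMUSG00000030162, chromosome 6, 129485244 to 129507165) was the only member highest in the neutrophil column. On the log2 scale it stood at 12.68 for neutrophils, 11.31 (day 1), 10.88 (day 2) and 10.30 (day 4) for Ly6C high macrophages, and 10.55 (day 2) and 9.69 (day 4) for Ly6C low macrophages. The step from neutrophils to the next group, Ly6C high cells of day 1, was 1.37, or 2.58-fold, and each later step in the order was between 0.24 and 0.62. Olr1 was lower in Ly6C low than in Ly6C high cells by 0.33 on day 2 and 0.62 on day 4, and lower on day 4 than on day 2 by 0.58 in Ly6C high and 0.86 in Ly6C low cells. Neutrophil markers stood lower in macrophages of day 1 than in neutrophils (8 of 9, beside 16.1% of all genes). They were lower on day 4 than on day 2 in Ly6C high cells (4 of 7, 1 higher) and in Ly6C low cells (4 of 7, none higher). Of all genes, 2.0% were lower and 14.3% higher in that step of Ly6C high cells, and 2.16% and 9.23% in Ly6C low cells. Between the subsets the neutrophil markers went in both directions, being 2-fold higher in Ly6C low cells for 2 of 8 and lower for 1 on day 2, and higher for 2 of 6 and lower for 2 on day 4. The shares of all genes were 3.71% higher and 4.03% lower on day 2, and 2.44% and 8.93% on day 4. The part of neutrophils in the Olr1 difference was not tested. The nearest coding gene on that side of Olr1, at a gap of 12.5 kb with no coding gene between, is Clec7a, which encodes the beta-glucan receptor dectin-1. Clec7a stood at 12.98 for day 1 neutrophils, 12.72 for Ly6C high macrophages of day 1, 12.61 and 11.18 for the high and low subsets of day 2, and 12.65 and 12.49 for the high and low subsets of day 4, with no such descent.

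Stab1 (ENSMUSG00000042286, chromosome 14, 31139013 to 31168641) was the member that separated the subsets. It stood at 12.71 for neutrophils, 13.39 (day 1), 13.40 (day 2) and 12.95 (day 4) for Ly6C high macrophages, and 14.58 (day 2) and 14.33 (day 4) for Ly6C low macrophages. Both Ly6C low columns were above all the others, with a gap of 0.93 to the highest Ly6C high column. The subset difference was 1.18 on day 2 and 1.38 on day 4, or 2.26-fold and 2.61-fold. It was 0.87 and 0.83 relative to Cd68. Endothelial cells also make stabilin-1. In Ly6C low cells 7 of 10 endothelial markers on day 2 and 11 of 12 on day 4 were 2-fold lower. Of all genes, 4.03% were lower and 3.71% higher on day 2, and 8.93% and 2.44% on day 4. Of the endothelial markers called lower, only Cdh5 and Pecam1 on day 2 reached the minimum in Ly6C low cells too. On day 4 only Cdh5, Pecam1, Tie1 and Kdr did. The filter fixed the direction of the rest. Cdh5 stood at 6.08 against 7.67 on day 2 and at 6.25 against 10.56 on day 4. The part of endothelial cells in the Stab1 difference was not tested. Of the lymphatic endothelial markers, 1 of 2 compared was higher in Ly6C low cells on day 2, and 1 of 3 higher and 1 lower on day 4. Among them Ccl21a was listed at 0 in all 6 groups and Prox1 in 2 of them, while Lyve1, which some macrophages also express, was higher in Ly6C low cells by 2.71 on day 2 and 2.09 on day 4. An exon of Stab1 overlaps the antisense gene Nt5dc2, and whether the counting used strand is not given in the sources used here. Nt5dc2 was lower in Ly6C low cells by 0.73 on day 2 and 0.29 on day 4.

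**Figure D2:**
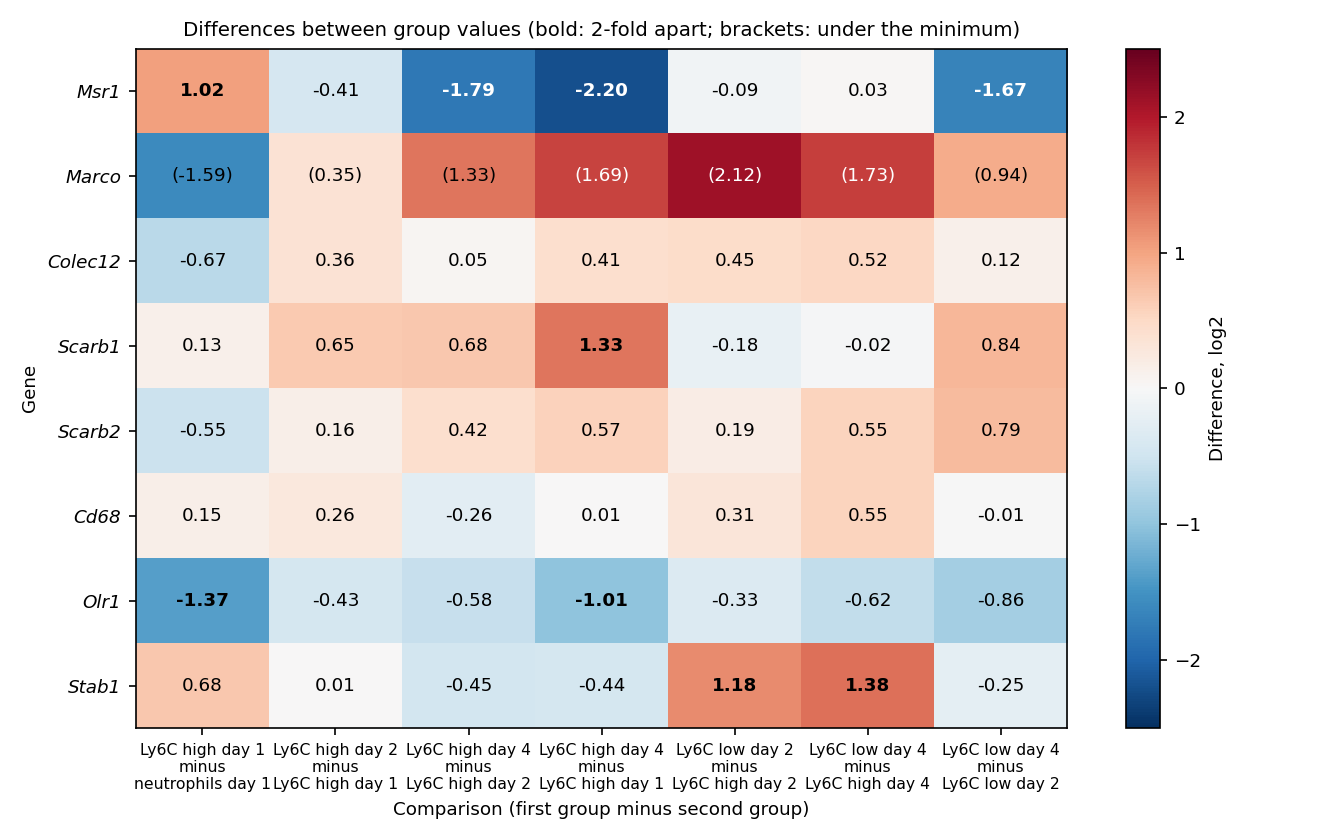
Difference of the authors' log2 group values (colour and number, first group minus second) for the 8 genes (rows) in 7 comparisons (columns); bold numbers are 2-fold apart and bracketed ones belong to Marco, which missed the minimum. Msr1 is lowest in the day 4 columns (-1.79, -2.20 and -1.67), and Stab1 holds the bold values of both subset comparisons (1.18 and 1.38).

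Of the 7 genes that reached the minimum, 0 to 3 were 2-fold apart in a comparison, and with so few genes these counts are set beside the share of all genes without being read as particular to the receptors. In Ly6C high cells of day 1 against neutrophils, 2 of 7 were apart, Msr1 higher by 1.02 and Olr1 lower by 1.37, where 32.7% of all genes were (16.6% higher, 16.1% lower). The Msr1 value lay at the threshold and was 0.88 with the columns rescaled by median ratios and 0.98 after quantile normalization. Between days 1 and 2 of Ly6C high cells none was apart, where 2.51% of all genes were (1.41% higher, 1.1% lower). From day 2 to day 4, 1 of 7 was apart in Ly6C high cells (16.3% of all genes, 14.3% higher and 2.0% lower) and 1 of 7 in Ly6C low cells (11.4%, 9.23% higher and 2.16% lower), Msr1 both times, on the lower side. After quantile normalization the shares of all genes were 9.99% higher and 6.13% lower in Ly6C high cells and 7.29% higher and 3.64% lower in Ly6C low cells. Over days 1 to 4 of Ly6C high cells 3 of 7 were apart (21.6% of all genes, 17.6% higher and 3.97% lower), Scarb1 higher and Msr1 and Olr1 lower, and these shares were 12.4% and 9.38% after quantile normalization. The Olr1 value of -1.01 became -0.92 under median ratios and -0.80 under quantile normalization. Between the subsets 1 of 7 was apart on each day, Stab1, on the higher side. The share of all genes was 7.74% on day 2 (3.71% higher, 4.03% lower) and 11.4% on day 4 (2.44% higher, 8.93% lower, or 4.76% and 7.68% after quantile normalization). The median difference of the 7 genes was 0.19 on day 2 and 0.52 on day 4, beside -0.03 over all genes on both days.

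**Figure D3:**
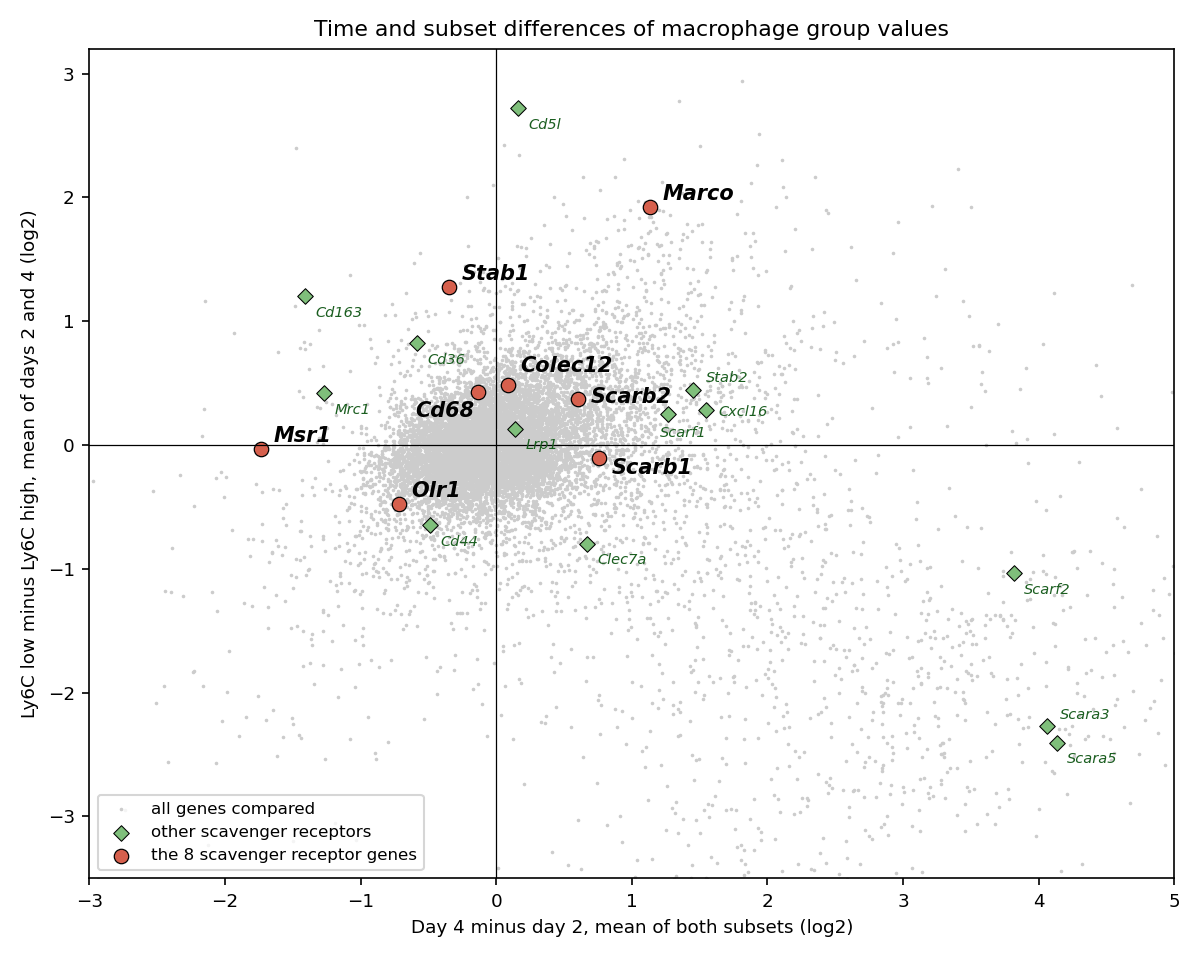
Mean difference between Ly6C low and Ly6C high values over days 2 and 4 (vertical axis, log2) against mean difference between days 4 and 2 over both subsets (horizontal axis, log2), with circles for the 8 genes, diamonds for other scavenger receptors and grey points for the 12621 genes compared, of which 110 lie outside the window. Msr1 stands at -1.73 on the time axis and -0.03 on the subset axis, Stab1 at -0.35 and 1.28.

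Averaged over both days, the subset difference (Ly6C low minus high) was 1.28 for Stab1, 0.49 for Colec12, 0.43 for Cd68, 0.37 for Scarb2, -0.03 for Msr1, -0.10 for Scarb1 and -0.47 for Olr1. Over the 12621 genes that reached the minimum in any of these 4 columns, the middle 90% of values ran from -1.56 to 0.76. Averaged over both subsets, the time difference (day 4 minus day 2) was -1.73 for Msr1, -0.72 for Olr1, -0.35 for Stab1, -0.14 for Cd68, 0.09 for Colec12, 0.60 for Scarb2 and 0.76 for Scarb1. The same span over all genes was -0.70 to 2.20, so that Msr1 and, narrowly, Olr1 lay below it on time and Stab1 above it on subset. Between days 2 and 4 the subset difference shifted by at most 0.37 for any of the 7, in Scarb2.

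Levels of different genes were compared after division by the joined exon length. Cd68 had the highest log2 normalised reads per kb in all 6 groups, 12.96 to 13.68, and Marco the lowest. Msr1 stood above Stab1 per kb in neutrophils, by 0.91, and in Ly6C high cells of days 1 and 2, by 1.25 and 0.83. On day 4 Stab1 stood above Msr1, by 0.51 in Ly6C high and 1.86 in Ly6C low cells, where it was 3.64-fold higher. In Ly6C low cells of day 2 Stab1 was ahead by 0.44, but with the length of the longest coding transcript in place of all exons the difference was -0.0033, and in Ly6C high cells of day 4 it shrank to 0.07. Olr1 ran from 2.60 above Scarb2 in neutrophils to 0.97 below it in Ly6C low cells of day 4.

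**Figure D4:**
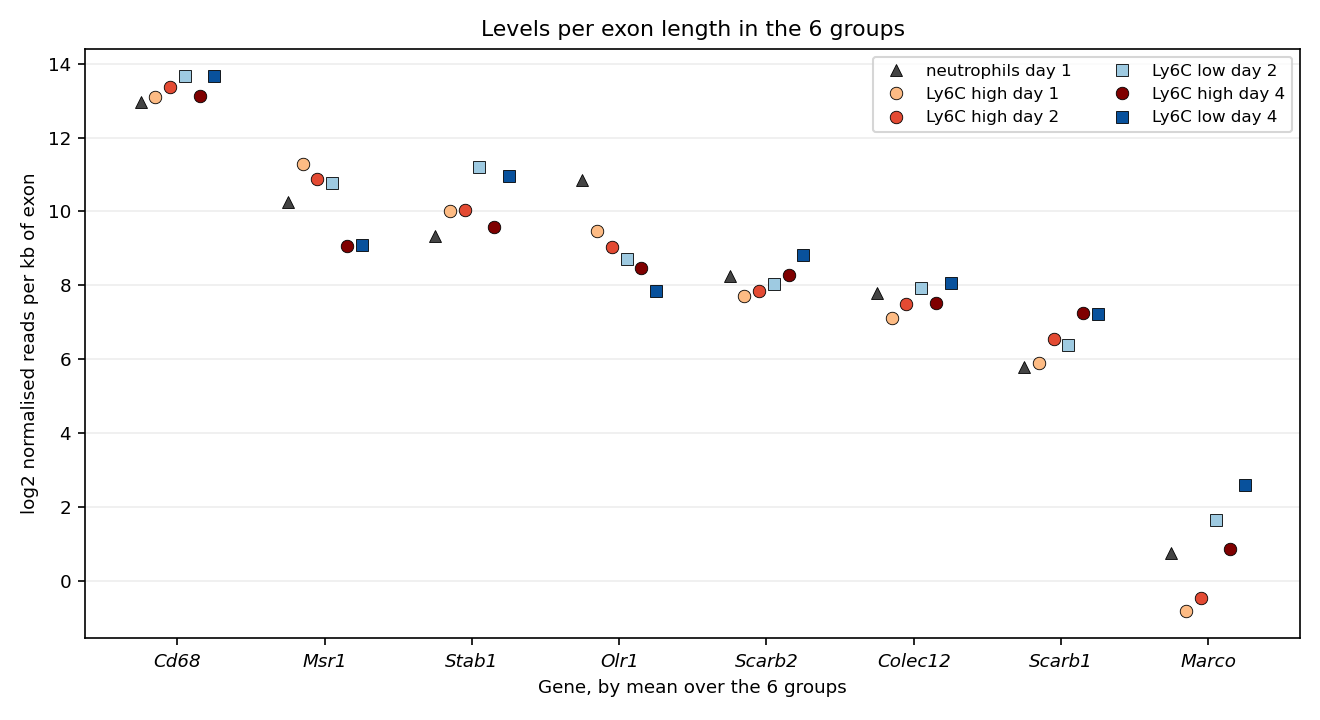
Log2 normalised reads per kb of joined exons (vertical axis) of the 8 genes (horizontal axis, by mean), with 1 symbol per group, a triangle for neutrophils, circles for Ly6C high and squares for Ly6C low groups. Cd68 lies at 12.96 to 13.68 in all groups, and the day 4 symbols of Msr1, 9.08 and 9.10, lie below those of Stab1, 9.59 and 10.97.

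Across the 6 groups the closest pair of members was Stab1 and Cd68, with a Pearson correlation of 0.96, followed by Marco and Colec12 at 0.93, and the most opposed were Msr1 with Scarb2 and Scarb1 with Olr1, both at -0.87. These describe 6 columns that share libraries and are given without a test. Among 7493 genes with a range of at least 1, the 3 with the profile most like each member were Utp20, 4930503L19Rik and Pop1 for Msr1 (0.99 each), Lrp12, Npl and Nat6 for Stab1 (0.98 each), Fam117a, Lbh and Batf3 for Scarb1 (0.99 each), Rnf180 (1.00), Rsph3b and Mapk3 (0.99 each) for Scarb2, and Diap2, Cox17 and Fbxl5 (1.00 each) for Olr1. Cd68 and Colec12 varied too little, and Marco was too low, for this search.

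The 18 other scavenger receptors give the setting of these 8. Mrc1, the mannose receptor of class E, and Cd163, the receptor for haemoglobin bound to haptoglobin, were lower on day 4 than on day 2, as Msr1 was. Mrc1 stood at 12.50 for day 1 neutrophils, 14.72 for Ly6C high macrophages of day 1, 14.33 and 14.53 for the high and low subsets of day 2, and 12.84 and 13.48 for the high and low subsets of day 4. Cd163 stood at 9.41 for neutrophils, 11.32 (day 1), 10.34 (day 2) and 8.98 (day 4) for Ly6C high macrophages, and 11.59 (day 2) and 10.13 (day 4) for Ly6C low macrophages, and unlike Msr1 it stood higher in Ly6C low cells on both days, by 1.25 and 1.15. Cd5l, a secreted scavenger protein that supports macrophage survival, stood at 4.74 for day 1 neutrophils, 3.52 for Ly6C high macrophages of day 1, 5.35 and 8.44 for the high and low subsets of day 2, and 5.88 and 8.24 for the high and low subsets of day 4. Cd36, a class B relative of Scarb1, stood at 13.09 for neutrophils, 13.78 (day 1), 13.02 (day 2) and 12.53 (day 4) for Ly6C high macrophages, and 13.93 (day 2) and 13.25 (day 4) for Ly6C low macrophages, with the subset difference of Stab1 in a smaller size, 0.92 and 0.72, and no increase with time of the kind seen for Scarb1. Stab2, the paralog of Stab1, was highest in Ly6C low cells of day 4 at 10.74, and differed between the subsets by 0.25 and 0.64.

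**Figure D5:**
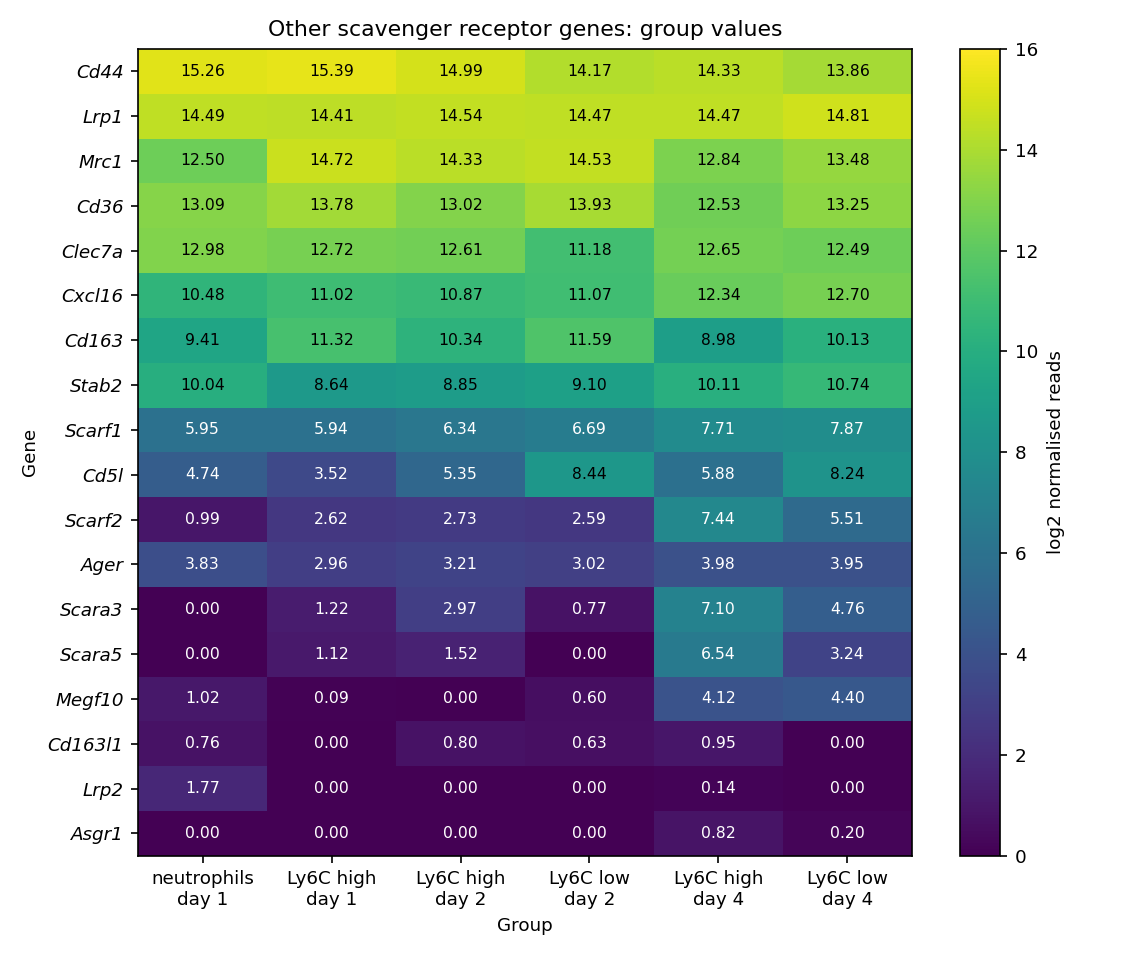
Log2 normalised reads (colour and number, authors' value per group) of the 18 other scavenger receptor genes (rows, by mean) in the 6 groups (columns). Mrc1 and Cd163 are lower in the day 4 columns than in the day 2 column of the same subset, and Scara3, Scara5 and Scarf2 are highest in Ly6C high cells of day 4, at 7.10, 6.54 and 7.44.

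As a list, 8 of the 13 other receptors compared were 2-fold apart between days 2 and 4 of Ly6C high cells, 6 higher and 2 lower, where 14.3% of all genes were higher and 2.0% lower, and the median of the 13 was 0.53 against 0.01 over all genes. The 3 highest differences, of Scara5, Scarf2 and Scara3, belong to genes known from stromal cells, and fibroblast markers stood higher in the same column. These 3 genes stood at 1.52, 2.73 and 2.97 on day 2 and reached the minimum only on day 4. The filter thus fixed their direction, and the count and the median include them. In Ly6C low cells 5 of 11 were higher on day 4 and 2 lower, beside 9.23% and 2.16% of all genes, and Scarf2 again passed only through day 4. Between the subsets 2 of 10 were higher in Ly6C low cells on day 2 and 1 lower, beside 3.71% and 4.03% of all genes. On day 4, 2 of 13 were higher and 3 lower, beside 2.44% and 8.93%, with Scara3 and Scara5 passing only through Ly6C high cells.

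Genes that act next to the receptors were given from lists. Apoe, a lipoprotein component, stood at 14.05 for day 1 neutrophils, 14.09 for Ly6C high macrophages of day 1, 15.38 and 16.04 for the high and low subsets of day 2, and 17.02 and 17.82 for the high and low subsets of day 4, higher on day 4 than on day 2 in both subsets as Scarb1 was, and above the Ly6C high value in Ly6C low cells, by 0.66 and 0.80, where Scarb1 was level. Of the 12 cholesterol uptake, storage and efflux genes compared, 3 were higher and 1 lower on day 4 than on day 2 in Ly6C high cells. Pltp and Abcg1 were on the higher side besides Apoe, and 14.3% of all genes were higher and 2.0% lower. In Ly6C low cells 4 were higher and none lower, beside 9.23% and 2.16% of all genes. Sparc, which encodes the stabilin-1 ligand, had 9.51 (day 2) and 13.38 (day 4) for Ly6C high macrophages against 6.73 and 10.43 for Ly6C low macrophages, lower where Stab1 was higher, and it is also a fibroblast gene. Of the 12 ligands and partners compared, 6 were lower in Ly6C low cells on day 2 and 5 on day 4, and none higher. The shares of all genes were 4.03% lower and 3.71% higher on day 2, and 8.93% and 2.44% on day 4. Furthest were Sparc, Col4a2 and Col4a1 on day 2 and Col4a2, Col4a1 and Hp on day 4. Fibroblast markers were lower as well (7 of 7 and 12 of 12). On day 2 Dcn, Pdgfrb, Postn and Col6a3 among them reached the minimum only in Ly6C high cells, so the filter fixed their direction. The part of fibroblasts in the counts of ligands and partners was not tested.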

How the data were processed

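RNA of 17 sorted-cell samples in 6 groups was sequenced. The authors deposited 1 table of log2 normalised reads with 1 column per group; the submitters' processing notes name TopHat2 2.0.7, Cufflinks 2.0.2 and the genome build mm10, while normalization, annotation and the joining of samples into a group value are not stated there. From these log2 values differences between groups were taken, and counted as apart at 1 or more where the higher group reached 5. The worth of 1 read per library was estimated from repeated low values (relative tolerance 1e-05). Lengths and positions came from GENCODE M21, which held 95.3% of the gene IDs, and promoter sequences from RefSeq (GRCm38.p6). Per-kb levels used joined exons. For each member with a range of at least 1 and a value of at least 5, the 3 genes with the highest Pearson correlation over the 6 groups were named. Of 14 other lists, up to 3 genes furthest apart in a comparison were named, and Lipa, Apoe, Cd36, Mrc1, Cd163 and Cd5l in all groups whatever their values; some genes the rule names are not reported here. Marker genes named singly, Stab2, Sparc, Clec7a and Nt5dc2 fall outside that rule and were chosen after their values were seen. The members and lists were chosen with earlier results of these data known. The counting was tested on simulated data. Python 3.11.15, numpy 2.4.6, pandas 2.3.3 and matplotlib 3.10.9 were used. Other pseudocounts, minimums and scalings were tried, and the longest coding transcript length was added after seeing the data. Read counts and intervals cover counting error only.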

Additional observations from a re-analysis of the deposited data

How the results depend on the processing

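No paired analysis was possible because the table holds 1 value per group; for the same reason no replicate block was fitted and no sample was left out, and depth is known only as an estimate. Differences of the 8 genes were taken again under the other settings, Marco only without a minimum. No minimum, a minimum of 7 and protein-coding genes only change which genes are counted and leave each difference as it was. The other pseudocounts hardly move genes with this many reads, so that only median ratios and quantile normalization could move the values much. All 350 differences, the unchanged ones included, moved by less than 1.5-fold, and 347 kept their sign. The 3 that did not were small: Scarb1 between Ly6C high cells of day 1 and neutrophils (0.13, and -0.0143 under median ratios), Cd68 between days 4 and 2 of Ly6C low cells (-0.0118, and 0.03 under median ratios) and Msr1 between the subsets on day 2 (-0.09, and 0.12 after quantile normalization). Median-ratio rescaling removed an offset of 0.06 from Ly6C high cells of day 1 and of -0.09 from neutrophils, which brought the first down and the second up, and 1 gene rather than 2 was then apart between them, as it was after quantile normalization (1). The calls lost were Msr1 in that comparison and Olr1 between days 1 and 4. Without a minimum, Marco joined and 2 genes rather than 1 were apart between days 2 and 4 of Ly6C high cells and between the subsets on day 2 (2) and day 4 (2), 3 rather than 2 between day 1 macrophages and neutrophils, and 4 rather than 3 between days 1 and 4 of Ly6C high cells. Over all genes, in the order day 1 macrophages against neutrophils, day 2 against 1, day 4 against 2 and day 4 against 1 of Ly6C high cells, subsets on day 2, subsets on day 4 and day 4 against 2 of Ly6C low cells, the counts apart were 3886, 282, 2008, 2674, 889, 1414 and 1346. They were 8154, 1024, 4542, 5398, 2244, 3263 and 3235 with no minimum, and 2556, 136, 1019, 1471, 448, 723 and 750 with a minimum of 7. With longest coding transcript lengths, an alternative chosen after seeing the data, Stab1 minus Msr1 per kb was -0.0033 in Ly6C low cells of day 2 and Olr1 minus Scarb2 per kb was -0.22 in Ly6C high cells of day 4, both above 0 with joined exons; the lengths used are the whole of that change.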
